A study of Mus musculus with 4 samples.

Results

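The heat shock proteins described here are 10 mouse genes: Hsp90aa1, Hsp90ab1, Hspa1a, Hspa1b, Hspa8, Hsph1, Dnajb1 and Hspb1 of the cytosol and nucleus, and Hspd1 and Hspe1 of the mitochondrial matrix. They were chosen by name from the array's 39429 probes, which stand for 30026 genes. The choice used no threshold on measured values but was made with earlier results of these data known. A probe carried the name of 9 of the 10 genes, 7 of them cytosolic, and no probe was named for Hspa1b. The 9 genes had 14 probes in all, and the brightest probe of each was well above background on all 4 arrays.

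Heat shock proteins are chaperones that bind unfolded or partly folded proteins. HSP70 proteins (Hspa genes) hold short exposed segments and release them in cycles driven by ATP, J-domain proteins such as DNAJB1 load them with clients, and HSP110 (Hsph1) exchanges their nucleotide. HSP90 proteins finish the folding of kinases and steroid receptors. Heat shock factor 1, HSF1, raises the inducible members when unfolded protein builds up, by binding inverted repeats of nGAAn near their starts, whereas Hspa8 and Hsp90ab1 are the constitutive HSP70 and HSP90 of most cells.

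Liver RNA was measured in C57BL/6N mice, either Pnpla7-/- (knockout, KO) or Pnpla7+/+ (wild type, WT), at 3 and at 6 weeks of age. PNPLA7 is a lysophospholipase, and the title of the series sets its work on phosphatidylcholine beside the supply of methyl groups to the methionine cycle. Each group was 1 array of RNA pooled from 5 livers, so no comparison between 2 arrays has a replicate check. Which part of Pnpla7 is deleted, and the time of day and feeding state at collection, are not given in the sources used here.

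Of 43020 spots per array, between 28714 and 30697 were well above background. The 4 arrays shared 1 slide with 1 position per group, so an effect of position and one of group cannot be told apart. The Pnpla7 probe read 7.54 in WT and 6.70 in KO at 3 weeks, and 9.65 in WT and 4.42 in KO at 6 weeks. As the deleted part is unknown here, these values do not check the labels. The 12 hepatocyte markers summed to 2000 in WT and 1960 in KO at 3 weeks, and to 1970 in WT and 2240 in KO at 6 weeks, and none of them moved by 2-fold between genotypes. In such bulk RNA, fewer cells of a type and less RNA per cell cannot be told apart. All signals are processed intensities divided by the array's 75th percentile. They compare 1 probe between arrays and never one gene with another.

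Letters of the HSF1 repeat were searched in RefSeq start windows (GRCm38.p6). A window runs from 250 bases before to 50 bases after an annotated transcription start. The table holds windows for 7 of the 10 genes, 10 windows in all, and not for Hsp90aa1, Hsp90ab1 or Hspa8. GAANNTTCNNGAA, 3 inverted repeats, was searched on either strand, as was the shorter form of 2 repeats, GAANNTTC or TTCNNGAA, which every match of the longer one contains. The long motif is in 198 of 32851 windows of all genes (0.603%), and the short one is in 4946 (15.1%). The stretch before the start of Hspa1a, a stress-inducible HSP70, is printed because the probe of that name differed most of the members between genotypes at 6 weeks. That probe is also listed for Hspa1b. The printed stretch covers chr17:34972157-34972316 on the minus strand, 160 bases that end just before the start, with the short motif in capitals.
Hspa1a: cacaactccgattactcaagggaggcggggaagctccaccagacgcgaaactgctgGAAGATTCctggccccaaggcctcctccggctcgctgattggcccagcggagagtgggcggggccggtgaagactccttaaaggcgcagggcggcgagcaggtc

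Further sites are printed as 30 bases each, from genes that moved and genes that did not. The matched letters are again in capitals, and each site is on its gene's own strand. The Hsph1 sites are chr5:149636351-149636380 and chr5:149636287-149636316 (minus strand), the Hspb1 sites are chr5:135887791-135887820 and chr5:135887811-135887840 (plus strand, overlapping by 10 bases), and the site between Hspd1 and Hspe1 is chr1:55088053-55088082 (plus strand, as Hspe1 reads it).
Hsph1, before the start: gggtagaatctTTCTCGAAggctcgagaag
Hsph1, after the start: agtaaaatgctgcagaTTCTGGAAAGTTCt
Hspb1, farther from the start: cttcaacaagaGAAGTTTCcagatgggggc
Hspb1, nearer to the start: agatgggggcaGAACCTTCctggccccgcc
Hspd1 and Hspe1: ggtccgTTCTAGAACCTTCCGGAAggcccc

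The long motif was found in 3 of the 7 genes, Hsph1, Hspd1 and Hspe1, and at least the short one in 6 of the 7. Hspd1 and Hspe1 lie head to head with 216 bases between one Hspd1 start and the Hspe1 start, and the 18 matched bases are the same genomic bases for both. They run from position -89 to -72 from the Hspe1 start and from -144 to -127 from that Hspd1 start. The 2 windows of Dnajb1 held neither form. A match describes these letters and is neither a binding site nor a cause, and a window without one says nothing about HSF1.

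**Figure D1:**
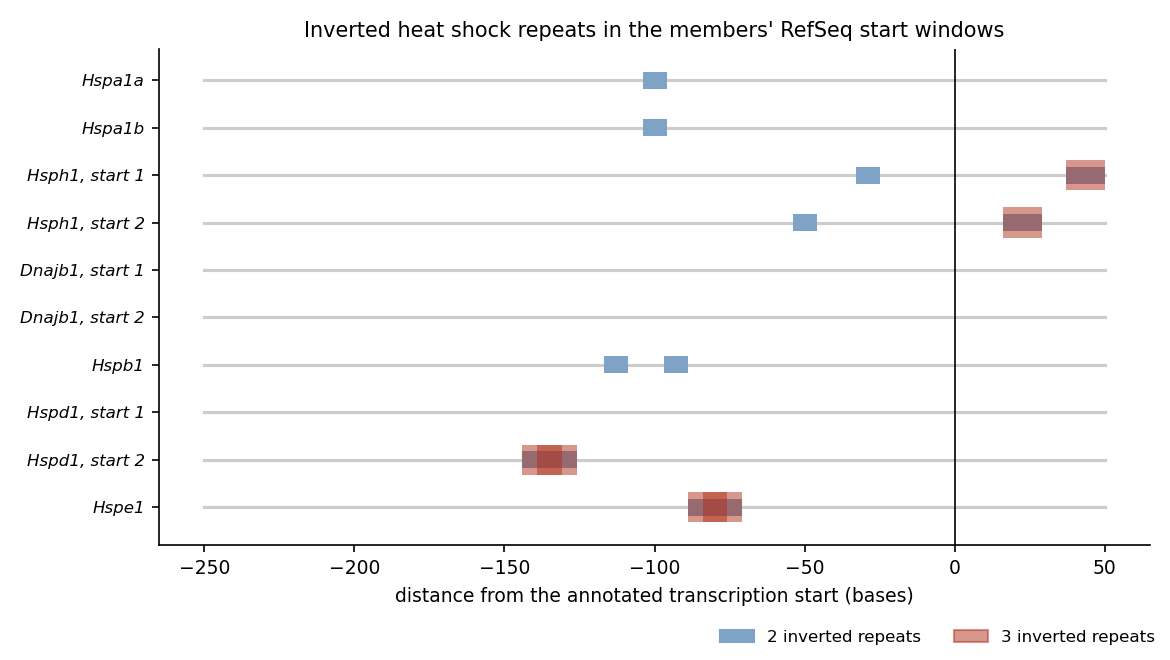
Each line is 1 RefSeq start window, drawn by distance in bases from the annotated transcription start, and blocks mark 2 (blue) or 3 (red, taller) inverted repeats, which overlap. Hspa1a and Hspa1b carry 1 short match each, Hsph1 has 3 repeats just after the start, the shared Hspd1 and Hspe1 stretch has overlapping matches of 3 repeats, and both Dnajb1 windows are empty.

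Hspa1a and Hspa1b encode nearly identical inducible HSP70 proteins from neighbouring genes. Their windows differ at 4 of 300 bases (98.7% identical), and their starts lie 12918 bases apart. The probe named Hspa1a, at chr17:35107117-35107176 in the build of the array files (mm9), is listed by the files for 2 RefSeq transcripts, 1 of each gene. Its 60 bases are printed because they decide what was measured. Its values cannot be assigned to one of these genes alone.
Hspa1a probe: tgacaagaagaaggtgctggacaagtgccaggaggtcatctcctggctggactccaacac

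At 6 weeks 4 members were at least 2-fold lower in the KO pool than in the WT pool: Hspa1a, Hsph1, Hsp90aa1 and Dnajb1. None was 2-fold higher. Of all 21386 genes compared at that age 4.54% were 2-fold lower and 6.11% were 2-fold higher. The constitutive Hspa8 and the mitochondrial Hspd1 and Hspe1 lay within 0.01 of no change on the log2 scale with the main processing. Under the alternatives run they fell as low as -0.25, -0.16 and -0.15. At 3 weeks no member was 2-fold lower or higher, where 2.90% and 2.86% of 21758 genes were. The median log2 ratio of the 9 members was -0.03 at 3 weeks and -0.54 at 6 weeks, beside 0.00 and 0.05 for all genes compared. It was -1.06 at 6 weeks for the 7 cytosolic members alone.

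The inducible HSP70 probe (Hspa1a) read 0.241 in WT and 0.221 in KO at 3 weeks, and 0.281 in WT and 0.0616 in KO at 6 weeks. The 3 other arrays lay within 1.27-fold of one another, and KO at 6 weeks stood 1.84 log2 units below the lowest of them. KO was 4.57-fold lower than WT at 6 weeks (log2 ratio -2.19), which is the 1.08th percentile of all genes compared. With a normexp background correction and quantile normalization the log2 ratio was -1.5. Hspa1a was the sole member for which the KO against WT ratio differed at least 4-fold between the ages, by -2.07 on the log2 scale. Of 18871 genes, 0.684% had a ratio at least 4-fold lower at 6 than at 3 weeks.

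Hsph1, the nucleotide exchange factor HSP110, read 6.36 in WT and 5.89 in KO at the younger age. At the older age WT read 6.34 and KO 1.84. The probe lies at chr5:150419744-150419803 (mm9). Again KO at 6 weeks stood apart, by 1.68 log2 units, from 3 arrays that lay within 1.08-fold of one another. The 6-week ratio was 3.44-fold lower in KO (log2 -1.78, 1.57th percentile). A second Hsph1 probe, 366 bases away in the genome (mm9), gave 2.30, 2.19, 2.23 and 0.677 on the same 4 arrays, a log2 ratio of -0.07 at the younger age and -1.72 at the older.

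Hsp90aa1, the inducible HSP90, had signals of 17.7 in WT and 16.1 in KO at 3 weeks. At 6 weeks they were 15 in WT and 5.79 in KO. KO at 6 weeks was below the other 3 arrays, which lay within 1.18-fold, by 1.37 log2 units. The fall against WT was 2.59-fold (log2 -1.37, 2.55th percentile). Its probe lies at chr12:111929248-111929307 (mm9).

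The constitutive partner Hsp90ab1 read 61.5 in WT and 60.0 in KO at 3 weeks. At 6 weeks WT read 68.7 and KO 52.8. Its log2 ratio at 6 weeks was -0.38, or 1.30-fold lower in KO, and -0.57 after quantile normalization. The KO array at 6 weeks was again the lowest, but by 0.19 log2 units, the same as the range of the other 3. The difference between the ratios of the HSP90 genes was not tested.

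DNAJB1 is the J-domain protein that stimulates HSP70. Dnajb1 signals (probe at chr8:86135660-86135719, mm9) were 8.83 in WT and 9.16 in KO at 3 weeks, and 11.0 in WT and 5.26 in KO at 6 weeks. KO at 6 weeks was 2.08-fold below WT (log2 -1.06, 4.17th percentile) and 0.75 log2 units below the next array. Of the 4 genes past 2-fold it was the nearest to that line.

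Hspa8, the constitutive HSP70 known as HSC70, read 84.8 (WT, 3 weeks), 91.9 (KO, 3 weeks), 90.9 (WT, 6 weeks) and 90.9 (KO, 6 weeks). The 4 arrays lay within 1.08-fold, and the log2 ratio of KO to WT was 0.12 at 3 weeks and 0.00 at 6 weeks. Its other 2 probes gave -0.17 and -0.01 at 6 weeks, and quantile normalization gave -0.25 for the brightest. None of these came near 2-fold.

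In the mitochondrial chaperonin, Hspd1 encodes the HSP60 barrel and Hspe1 its HSP10 lid. Hspd1 read 45.2, 43.3, 41.1 and 41, and Hspe1 31.3, 32.2, 27.6 and 27.4, in the same order of arrays. The log2 ratio of KO to WT was -0.06 for Hspd1 and 0.04 for Hspe1 at 3 weeks, and 0.00 and -0.01 at 6 weeks. The 2 other probes of Hspe1 gave 0.11 and 0.01 at 6 weeks. Both genes were a little lower at 6 weeks in each genotype, with log2 ratios of age between -0.08 and -0.23. The genotypes differed by less than the median spread between spots. Quantile normalization gave -0.16 for Hspd1 and -0.14 for Hspe1 at 6 weeks, beyond that spread. The long motif they share, printed above, lies before the Hspe1 start and before 1 of the 2 annotated Hspd1 starts. The window of the other Hspd1 start held no match. Whether the motif bears on these values was not tested.

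**Figure D2:**
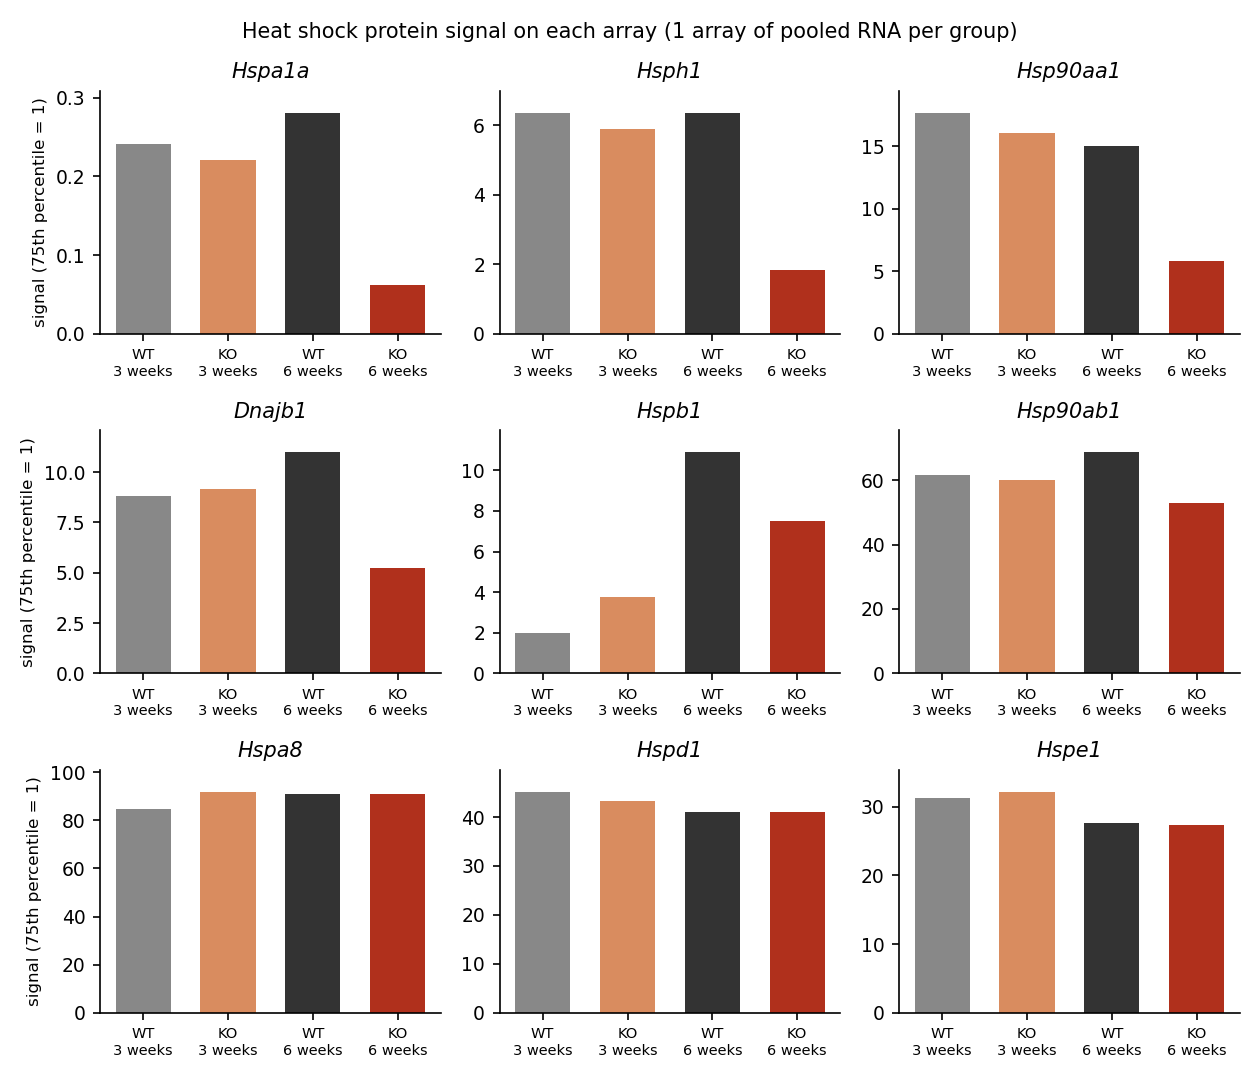
Bars give the signal of each measured gene on its brightest probe, relative to the 75th percentile of its array, for WT (grey, black) and KO (orange, red) at 3 and 6 weeks, with 1 array of pooled RNA per bar and no error bar for that reason. The red bar of KO at 6 weeks is far below the other 3 for Hspa1a, Hsph1 and Hsp90aa1 and lower for Dnajb1, while the 4 bars of Hspa8 lie within 1.08-fold.

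Hspb1, the small heat shock protein HSP27 that binds actin and holds unfolded clients without ATP, followed another course. Its probe, at chr5:136365366-136365425 (mm9), read 1.96 in WT and 3.76 in KO at 3 weeks, and 10.9 in WT and 7.50 in KO at 6 weeks. KO was therefore 1.92-fold higher at 3 weeks (log2 0.94) and 1.45-fold lower at 6 weeks (log2 -0.54). With age the signal rose 5.56-fold in WT and 1.99-fold in KO. Both arrays at 6 weeks were above both arrays at 3 weeks. Hspb1 was the sole member past 2-fold with age in WT, where 3.64% of 21169 genes were 2-fold higher and 5.46% were 2-fold lower.

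Skeletal muscle genes moved with genotype in these pools, and muscle is rich in small heat shock proteins. The 20 muscle markers summed to 0.962 in WT and 80.8 in KO at 3 weeks, and to 1.85 in WT and 54.9 in KO at 6 weeks. Of them 9 were well above background on all 4 arrays, 20 were at least 2-fold higher in KO at 3 weeks and 19 at 6 weeks. Hspb1 was higher in KO at 3 weeks and lower at 6 weeks, and the muscle sum was higher in KO at both ages. The part of muscle RNA in the Hspb1 values was not tested.

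The other small heat shock proteins, like the muscle markers, were higher in KO. All 7 compared were above 0 at 6 weeks, with a median log2 ratio of 1.1 and 4 past 2-fold, and 3 of 7 were 2-fold higher at 3 weeks (median 0.65). The ratios of Hspb3 and Hspb7 are bounds, since both WT arrays read them as not well above background. Of the 5 genes with no bound on any array, 2 were past 2-fold at 6 weeks (median 0.92) and 1 at 3 weeks (median 0.64). Cryab, the alpha-crystallin B chain of muscle and lens, read 0.857 in WT and 2.80 in KO at 3 weeks, then 0.795 in WT and 4.87 in KO. Hspb6 read 1.60 and 2.50, then 1.95 and 4.2. The part of muscle RNA in these values was not tested either.

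**Figure D3:**
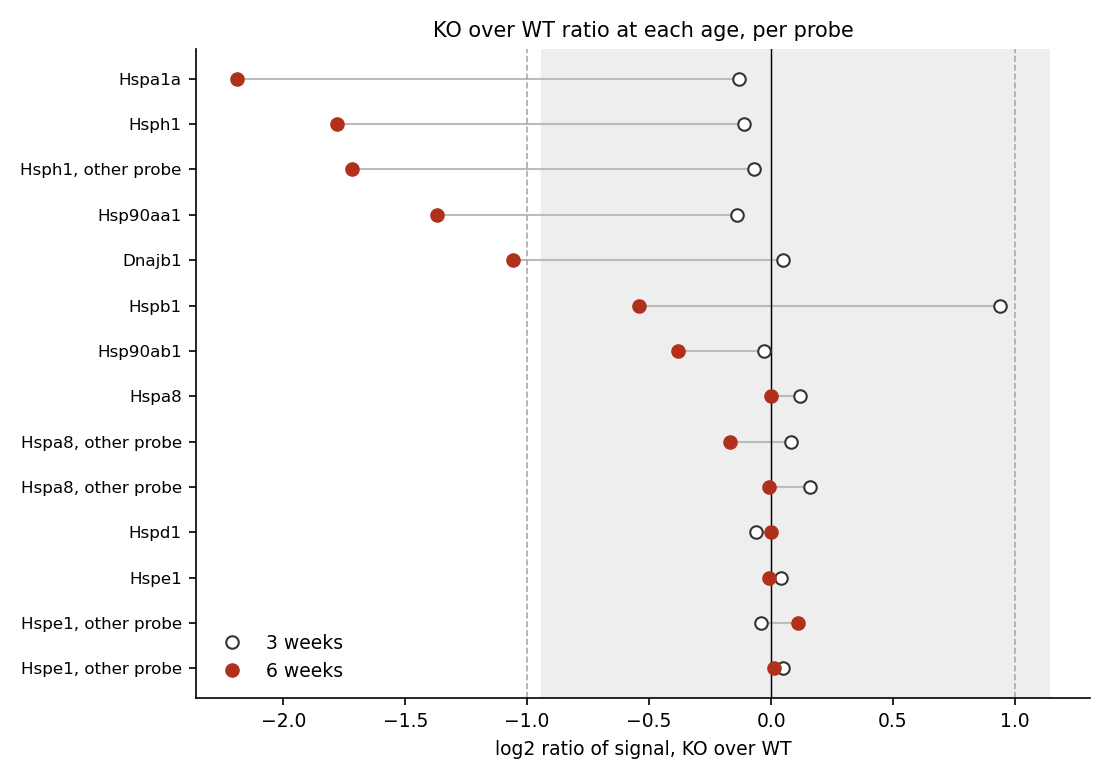
Points give the log2 ratio of KO to WT at 3 weeks (open) and at 6 weeks (red) for each of the 14 probes. Dashed lines mark 2-fold, and the grey band holds the middle of all genes at 6 weeks, from the 5th percentile at -0.94 to the 95th at 1.14. Hspa1a, both Hsph1 probes, Hsp90aa1 and Dnajb1 leave the band at 6 weeks, and Hspb1 crosses from above 0 to below it.

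Between 3 and 6 weeks in the KO pools 3 members were at least 2-fold lower, Hspa1a (log2 -1.84), Hsph1 (-1.68) and Hsp90aa1 (-1.47), and none was 2-fold higher, with Hspb1 at 1.0 just under. Of 21971 genes 6.26% were 2-fold lower and 6.02% were 2-fold higher. In WT the same 3 genes had log2 ratios of age of 0.22, -0.01 and -0.24. The comparison by age in KO shares its 6-week array with the comparison of genotypes at 6 weeks, so they are not separate evidence. KO at 6 weeks was the lowest array for 7 of 9 members, beside 27.2% of 18871 genes. For Hspd1 and Hspe1 the gap to the next array was 0.00 and 0.01 log2 units, below the median spread between spots. That leaves 5 of 9 with a gap above it, and the share of all genes with such a gap was not counted. KO at 6 weeks was at least 2-fold below every other array for 3 of 9, beside 1.40% of genes.

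The spread between spots of one probe was taken from 276 probes printed at least 10 times. For a log2 ratio at 6 weeks its SD had a median of 0.121 and a 95th percentile of 0.276 over these probes. Each member probe has 1 spot, so its own spread is not known. On KO at 6 weeks Hspa1a read 0.0616, below the median spot of that array (0.0864), and the spread was not split by brightness. The ratios of Hspa1a, Hsph1, Hsp90aa1 and Dnajb1 were 18.1, 14.7, 11.4 and 8.76 times the median SD. That of Hspb1 was 4.47 times and that of Hsp90ab1 3.13 times the median SD. Differences between pools are not in this spread. A limma fit of genotype with age as a second term took both ages as repeats of one genotype effect. It called 0 of 22648 genes at an adjusted p under 0.05, and 1007 (4.45%) had an unadjusted p under 0.05, none of them a member. Without the age term it also called 0 genes, and 703 had an unadjusted p under 0.05. In the fit with the age term the smallest limma adjusted p of a member was 0.914, for Hspa1a among others. The log2 effect of Hspa1a over both ages was -1.16 with a standard error of 0.666. With normexp and quantile normalization the smallest limma adjusted p of a member was 0.853. When the variance prior was given a trend, limma called 4 genes, 0 of them members.

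Hsf1 itself, the factor behind the inducible members, read 1.18 in WT and 1.33 in KO at 3 weeks and 1.28 in WT and 1.18 in KO at 6 weeks, which gives log2 ratios of 0.18 and -0.12. HSF1 is controlled mainly by its release from chaperones and by modification, which an RNA array does not measure. None of the 7 genes in the list of HSF1 and its partners was 2-fold changed at 6 weeks, and 1, Hsf5, was 2-fold lower in KO at 3 weeks. Hsf5 read 0.404 in WT and 0.0264 in KO at 3 weeks, then 0.0448 in WT and 0.0541 in KO. The array that stood apart for Hsf5 was thus WT at 3 weeks.

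Among 32 other cytosolic chaperones and co-chaperones 24 were lower in KO at 6 weeks, where 44.3% of all genes compared were, and the median log2 ratio was -0.17. None was past 2-fold lower. The nearest was Stip1, the adaptor HOP that hands clients from HSP70 to HSP90. It read 2.63 in WT and 2.49 in KO at 3 weeks, then 2.22 in WT and 1.16 in KO (log2 -0.94). Chordc1, an HSP90 co-chaperone with the long motif in its start window, read 3.58, 3.60, 3.07 and 1.72 on the same arrays (log2 -0.83 at 6 weeks). Bag2, a co-chaperone of HSP70, had a log2 ratio of -0.80. At 3 weeks the list's median was -0.01 and no gene was past 2-fold.

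One co-chaperone went the other way. Fkbp5, an HSP90-bound immunophilin and a well-known target of glucocorticoids, read 7.35 in WT and 7.56 in KO at 3 weeks and 3.86 in WT and 10.6 in KO at 6 weeks, and its log2 ratio at 6 weeks was 1.46. Of 10 glucocorticoid-responsive genes, Fkbp5 included, 5 were 2-fold higher in KO at 6 weeks and none was lower, with a median of 1.09. Of all genes compared 6.11% were 2-fold higher. From 3 to 6 weeks the median log2 ratio of these 10 genes was -0.75 in WT, with 9 below 0. In KO it was 0.33, with 3 below 0 and 0 past 2-fold.

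Another cytosolic group, the CCT chaperonin that folds actin and tubulin with its partner prefoldin, had none of 14 genes past 2-fold at 6 weeks (median 0.04). Nor was any gene past 2-fold among 13 mitochondrial chaperones and proteases (median 0.10), 20 of the endoplasmic reticulum (median 0.01) and 25 proteasome subunits (median -0.06). The most changed by name were Trap1, the mitochondrial HSP90 (log2 -0.70), the matrix protease subunit Clpx (-0.67) and the endoplasmic reticulum gene Creld2 (-0.64).

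The RNA-binding proteins Cirbp and Rbm3, which rise when cells are cooled mildly, moved in the other direction at 6 weeks. Cirbp read 1.1 in WT and 1.08 in KO at 3 weeks, then 1.60 in WT and 5.58 in KO. Rbm3 read 6.01 and 5.21, then 4.05 and 13.2. Their log2 ratios of KO to WT at 6 weeks were 1.81 and 1.71, and at 3 weeks -0.02 and -0.21. KO at 6 weeks was thus the highest array for both and the lowest for the 4 inducible chaperones.

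**Figure D4:**
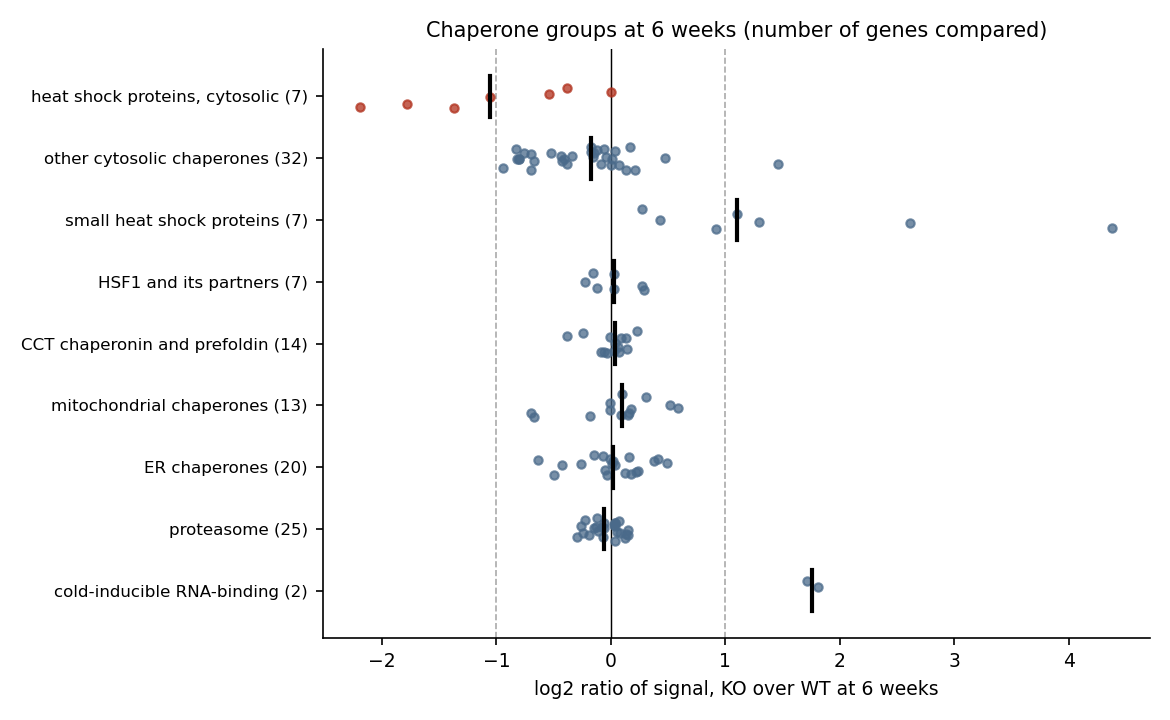
Points are genes, placed by their log2 ratio of KO to WT at 6 weeks, black bars are medians, and dashed lines mark 2-fold, with the number of genes compared in brackets. The cytosolic heat shock proteins have a median of -1.06 and the other cytosolic chaperones one of -0.17. The medians of CCT and prefoldin, of HSF1 and its partners, of the mitochondrial and ER chaperones and of the proteasome sit between -0.06 and 0.10. The other small heat shock proteins have a median of 1.1, with the bounds of Hspb3 and Hspb7 drawn as points. Cirbp (1.81) and Rbm3 (1.71) are also at the right.

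Other gene groups also differed on the KO array at 6 weeks. Of 15 core clock genes 3 were 2-fold lower and 6 higher, and of 19 cell cycle genes 12 were lower and 1 higher. The 11 Kupffer cell and macrophage markers summed to 93.6 in WT and 85.7 in KO at 3 weeks and to 83.1 in WT and 46.4 in KO at 6 weeks, with a median log2 ratio of -0.85 at 6 weeks, and 12 reference genes had a median of 0.01. The part of these groups in the chaperone values was not tested.

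Genes with the long motif were also read outside the heat shock proteins. Among 73 other genes with the long motif that were compared at 6 weeks, 3 were 2-fold lower in KO (4.11%) and 2 were 2-fold higher, and their median log2 ratio was 0.01. Among all 13288 genes with a window, 4.47% were 2-fold lower and the median was 0.02. Of 28 other cytosolic chaperones with a window, 2 had the long motif: Chordc1, at -0.83, and Dnajb6, at 0.47.

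The median course of the 7 cytosolic members over the 4 arrays, centred on its mean, was 0.10, 0.15, 0.41 and -0.65 log2 units, and it was the course of Dnajb1. Among the genes nearest to it of 14163 ranked, by root mean square difference over 4 arrays, were Ube2n at 0.022, AW146154 at 0.023, P4ha2 at 0.031 and Cd44 at 0.036. Ube2n read 0.766, 0.809, 0.994 and 0.464, and its lowest value in KO at 6 weeks follows from its choice by nearness to this course. With 4 arrays, many genes lie near any given course.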

How the data were processed

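Total RNA of 4 liver pools was labelled with Cy3 and hybridised to 4 one-colour Agilent mouse arrays, 1 per group, per the labels' protocols. The deposited intensity values were produced by Agilent Feature Extraction (version 11.5.1.1 in the submitters' processing notes) and were background-subtracted and detrended but not scaled between arrays, per the file headers. Other deposited values mark each spot with 0 or 1 as dim, saturated or an outlier. The authors' value table equals these intensities over the array's 75th percentile, with a ratio between 0.9998 and 1.0 to that quotient, and column medians of 0.0878, 0.0896, 0.0853 and 0.0864.

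From there each intensity was divided by the 75th percentile of non-control spots of its array, and log2 was taken. No spot was saturated. Outlier spots (189 to 252 per array) were left out, and repeated spots were averaged. A RefSeq table (GRCm38.p6) gave names to 27508 of 39429 probes by accession, to 3544 by symbol and to 404 by synonym, while 7973 kept the file's name. The brightest probe stood for a gene. A gene was compared where at least 1 of both arrays read it well above background. If the other array was dim, the ratio is a bound against the lowest signal well above background.

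No comparison of 2 arrays was tested, as groups had 1 array each. Genes were counted past 2-fold, and past 4-fold where ratios of both ages were compared. Genotype, with age as a covariate, was fitted with limma 3.58.1 (R 4.3.3). Tables and plots were made in Python 3.11.15 (pandas 2.3.3, numpy 2.4.6, matplotlib 3.10.9), and counting and fit were tested on simulated data. Alternatives were normexp (offset 50) with quantile normalization, quantile normalization alone, median scaling, other filters, averaging a gene's probes, keeping outlier spots, the authors' table, the file's names and thresholds of 1.5-fold and 3-fold.

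The members and all gene lists were chosen with earlier results of these data known. Named genes are the members, Hsf1 and Pnpla7, up to 3 genes per list with the greatest ratio at 6 weeks and 1 at 3 weeks, and the 5 genes nearest to the course of the cytosolic members. Dnajb6 was named after its value was seen. Not every gene taken by that rule is printed.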

Additional observations from a re-analysis of the deposited data

Results flagged for a closer look

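Hspb1 differed between genotypes in opposite directions at the 2 ages. Its log2 ratio of KO to WT was 0.94 at 3 weeks and -0.54 at 6 weeks. Each was more than 2 times the median spread between spots. The difference between the ages was not tested, since each ratio rests on 1 array per genotype.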

How the results depend on the processing

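No called ratio of a member changed sign under the alternatives run. Hspa1a, Hsph1, Hsp90aa1 and Dnajb1 were past 2-fold lower in KO at 6 weeks under each of the 9 alternatives of scaling, filter, probe and naming, with Dnajb1 between -1.11 and -1.05. Other thresholds changed counts, for all genes too: at 1.5-fold 1 member instead of 0 was called at 3 weeks (Hspb1, higher, beside 5.05% of all genes) and 5 instead of 3 between ages in KO (4 lower beside 13.0%, 1 higher beside 13.3%). Median scaling took Hspb1 past 2-fold between ages in KO (1.05). At 3-fold 2 instead of 4 were lower at 6 weeks (1.92% of all genes). The difference between ages took in 1 member at 4-fold, 4 at the square of 1.5-fold (all lower, beside 2.47% of all genes), 0 at the square of 3-fold (0.191%) and 0 with normexp and quantile normalization. The median log2 ratio of the members between ages in WT was 0.10, and -0.02 with the mean of all probes. In KO it was -0.23, and -0.43 with quantile normalization or -0.42 with normexp and quantile normalization. Scaling moved the median of all genes by under 0.1 log2 units. limma called 0 members under every setting run. The cause of these changes was not tested. No paired analysis was possible because each group has 1 array and the replicate number pairs nothing beyond the groups. With 4 arrays, precision is limited by their number. The log2 ratio of Hspa1a at 6 weeks ran from -2.24 to -1.5 over the alternatives, with the smallest fall under normexp.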
